A study of Mus musculus with 12 samples.

Results

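The enzymes described here remove superoxide and peroxides. They are the superoxide dismutases Sod1, Sod2 and Sod3, the catalase Cat, the glutathione peroxidases Gpx1, Gpx3 and Gpx4, and the peroxiredoxins Prdx1, Prdx3 and Prdx5. Their mRNAs were measured in control mouse kidneys and in other kidneys 24 h after ischemia. The enzymes were chosen as a family by gene symbol, with earlier results of these data known, and make up 10 of the 23420 genes in the count table. All 10 passed the filter on low counts, which left 11664 genes to be tested.

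Superoxide dismutases turn superoxide into hydrogen peroxide, and catalase, the glutathione peroxidases and the peroxiredoxins then reduce that peroxide. Catalase works on its own in peroxisomes, whereas glutathione peroxidases draw on glutathione and most peroxiredoxins on thioredoxin, both kept reduced by NADPH. The proximal tubule, the segment that reabsorbs most of the filtrate, is rich in mitochondria and peroxisomes and is the segment most exposed to injury when blood flow stops and returns. Gpx3 is secreted, and the kidney is known as the main source of the enzyme found in plasma.

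All kidneys came from male C57BL/6J mice. The 4 control kidneys were taken at nephrectomy, and the 8 ischemic kidneys had 20 min of clamping of the renal pedicle and 24 h of reperfusion, with the other kidney removed. The sample labels give the clamping for every sample, the controls included. The ischemic kidneys came from conscious or anaesthetised mice, but their labels contradict each other. In 4 kidneys, called set A, the title says anaesthesia and the group field says conscious, and in the other 4, called set B, the title says conscious and the group field says anaesthesia. The sets were therefore compared under neutral names, and no difference between them is given a direction with respect to anaesthesia. Surgery, loss of the other kidney, time and ischemia all separate the ischemic kidneys from the controls and cannot be told apart. The clamp was placed under ketamine and xylazine in all mice, conscious mice had a short sedation with isoflurane to close and release it, and the anaesthetised mice had ketamine and xylazine during ischemia. Whether the control kidneys came from mice whose other kidney is among the ischemic ones is not given in the sources used here. RNA was taken from kidney tissue without sorting of cells.

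Between 15367342 and 44793350 counts were assigned to genes in a kidney, so that 3 counts, taken as the limit of detection, correspond to 0.067 to 0.195 CPM, the unit of level used below, which is a count scaled to the same total in every kidney. Such limits cover counting error only. Set B kidney 4 stood apart from the other kidneys. It had the lowest total, and its second principal component of log2 CPM was 149.45 against -41.36 to 25.61 in the other 11, so results that rest on it are given with and without it. Markers of the kidney were present as the tissue label says. In the controls, 8 proximal tubule markers summed to 5990 to 6870 CPM and 4 markers of the thick ascending limb to 1600 to 1680 CPM.

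The 10 mRNAs together took a smaller share of the counts after ischemia. They summed to 10610, 12090, 9410 and 10580 CPM for the controls, against 4329, 5701, 4635 and 5035 CPM for set A and 6718, 5144, 6046 and 3134 CPM for set B. Every ischemic kidney lay below every control, and set B kidney 4 was the lowest of all. This is 1.07% ± 0.11 of all counts for the controls, 0.493% ± 0.0593 of those of set A and 0.526% ± 0.156 of those of set B (SD, n = 4 each). Gpx3 supplied 68.5% ± 1.58 of the sum for the controls, and the sum of the other 9 was also lower after ischemia, with 3352 ± 240 CPM for the controls, 1732 ± 276 CPM for set A and 1430 ± 268 CPM for set B (SD, n = 4 each). In bulk tissue, fewer cells that express a gene and less RNA per cell cannot be told apart.

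By the quasi-likelihood test of edgeR, adjusted over the 11664 genes by Benjamini-Hochberg, 6 of the 10 fell in set A against control and 4 did not pass, where 11.7% of all genes tested were lower and 22.3% changed in either direction. In set B against control, 8 fell and 2 did not pass, where 11.9% of all genes were lower and 22.8% changed. With both sets pooled against control, 8 fell, where 14.2% of all genes were lower and 26.4% changed. None rose in any of these comparisons, where 10.5%, 10.9% and 12.2% of all genes tested were higher. At an unadjusted p under 0.05, 1 of the 10 was higher in set A (Prdx1), where 15.4% of all genes were, and none in set B, where 16% were, and DESeq2 and limma-trend called none higher either. The median log2 fold change of the 10 was -1.19 for set A and -1.23 for set B, beside -0.02 over all genes tested in each. These comparisons share the control kidneys. Of the 10, 7 were lower in every kidney of set A than in every control, where 15.2% of all genes were, and 7 in set B, where 14.7% were. The same 7 were lower in all 8 ischemic kidneys than in every control, where 11.3% of all genes were. In the other direction, 1 of the 10 was higher in every kidney of set A (13.2% of all genes), and none was in set B (12.1%) or over all 8 ischemic kidneys (8.86%).

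**Figure D1:**
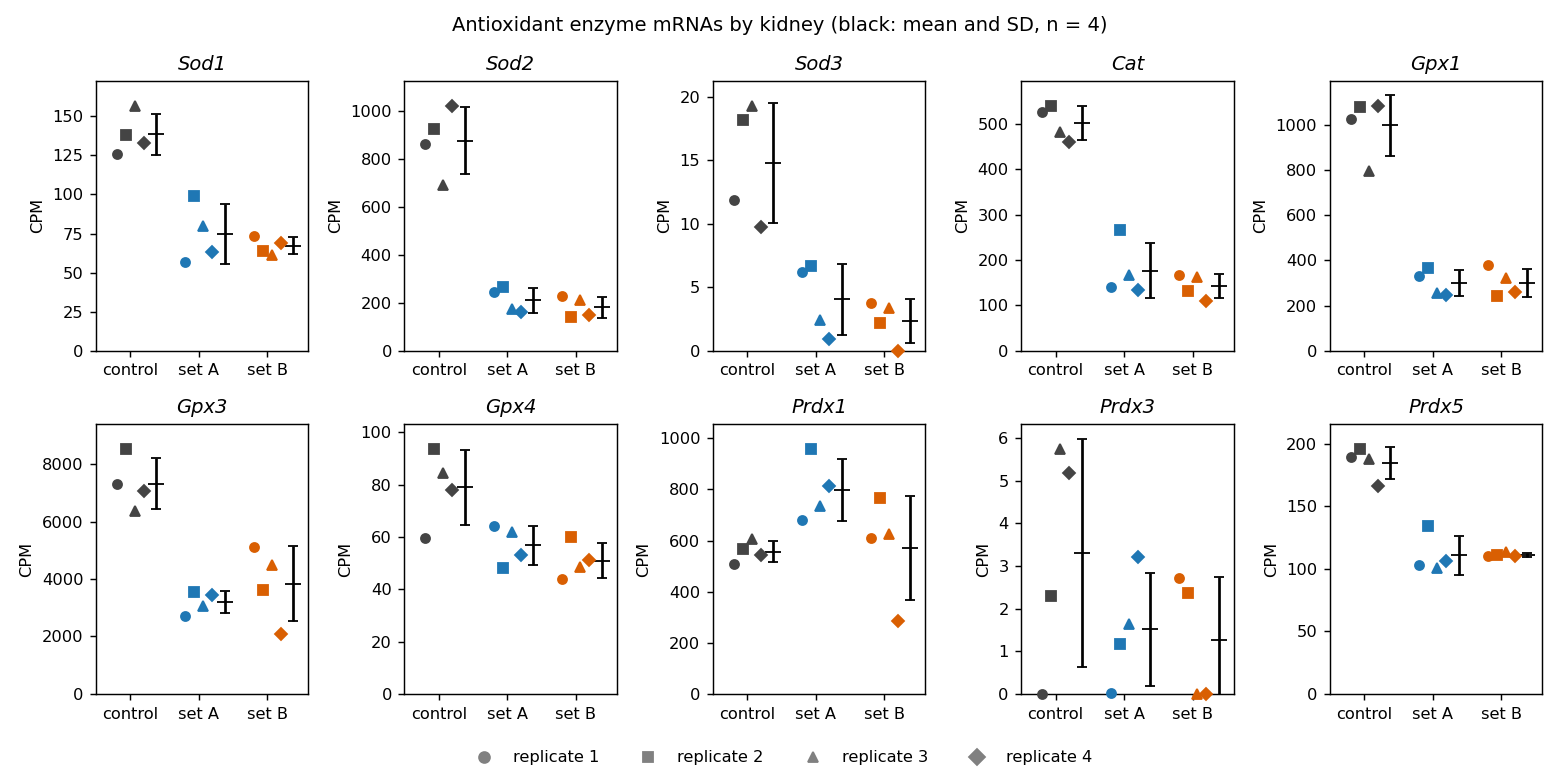
Level of each mRNA in each kidney, in CPM on linear axes from 0, with a panel and scale for each gene. Points are kidneys, with 1 symbol for each replicate number, and black bars give the mean ± SD of 4 kidneys, the lower end not drawn below 0. Sod1, Sod2, Sod3, Cat, Gpx1, Gpx3 and Prdx5 lie lower in all 8 ischemic kidneys than in any control. Prdx1 lies above the controls in all 4 kidneys of set A, and at 286 CPM in set B kidney 4.

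The enzymes of the cytosol with a match are shown beside the mitochondrial dismutase, whose fall was among the largest. The 250 bases before the RefSeq transcript start (GRCm38.p6) are given for Prdx1, Sod1 and Sod2. Capitals mark matches to the core of the antioxidant response element, TGACNNNGC, or to its reverse complement GCNNNGTCA, the element bound by the stress-responsive factor NRF2. Lower case is used for the other bases, and all are written 5′ to 3′ on the plus strand, which is the strand of all 3 genes.
Prdx1 (chr4:116685349-116685598): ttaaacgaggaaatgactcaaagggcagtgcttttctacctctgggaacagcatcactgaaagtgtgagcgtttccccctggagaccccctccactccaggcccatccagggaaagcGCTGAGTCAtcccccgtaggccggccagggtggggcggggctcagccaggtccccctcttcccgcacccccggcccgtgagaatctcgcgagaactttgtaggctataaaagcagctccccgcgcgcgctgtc
Sod1 (chr16:90220512-90220761): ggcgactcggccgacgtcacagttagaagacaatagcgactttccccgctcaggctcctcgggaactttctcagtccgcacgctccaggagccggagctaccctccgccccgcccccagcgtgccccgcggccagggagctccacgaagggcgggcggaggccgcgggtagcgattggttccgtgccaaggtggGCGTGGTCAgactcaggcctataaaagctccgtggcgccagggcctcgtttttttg
Sod2 (chr17:13007589-13007838): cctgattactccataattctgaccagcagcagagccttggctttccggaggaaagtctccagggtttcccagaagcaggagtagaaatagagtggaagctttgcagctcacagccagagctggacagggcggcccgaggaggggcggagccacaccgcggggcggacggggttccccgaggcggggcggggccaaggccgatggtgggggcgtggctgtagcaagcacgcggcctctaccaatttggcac
The match in Prdx1 begins at position -133 from the start and that in Sod1 at -56, both as the reverse complement, and the Sod2 stretch holds none. Each stretch reaches into or lies within the limits of its gene in GENCODE M21, which include other transcript starts. Over windows from 250 bases before to 50 bases after the start, 12.4% of 32851 RefSeq promoters held the core, as did 14.2% of 11245 promoters of genes past the filter. Among the enzymes, 2 of the 9 genes with an entry (2 of 12 promoters, since Gpx4 has 4) held it, and Sod3 had no entry. No other motif was searched. A match describes the letters only.

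Of the superoxide dismutases, Sod1 and Sod2 fell in both sets, and Sod3 in set B and over both sets. Sod1 (chr16:90220754-90226329, plus strand), the copper and zinc enzyme of the cytosol, was at 126, 138, 157 and 133 CPM for the controls, at 56.7, 99.1, 80.0 and 62.9 CPM in set A and at 73.7, 64.0, 61.5 and 69.0 CPM in set B. No ischemic kidney reached the lowest control, and the sets overlapped. Sod1 fell by 0.92 ± 0.17 on the log2 scale in set A (SE, edgeR adjusted p = 0.000528) and by 1.07 ± 0.17 in set B (adjusted p = 0.000118).

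Sod2 (chr17:13006846-13040063, plus strand), the manganese enzyme of the mitochondrial matrix, changed more. It was at 863, 925, 692 and 1022 CPM for the controls, at 243, 267, 173 and 159.5 CPM in set A and at 228, 140.1, 211 and 147 CPM in set B. The lowest control was thus over the highest ischemic kidney by a wide gap. It was 4.23-fold lower in set A (edgeR adjusted p = 9.6e-08) and 4.9-fold lower in set B (adjusted p = 3.07e-08). The ratio of Sod2 to Sod1 CPM was 6.42 ± 1.41 for the controls, 2.92 ± 0.94 for set A and 2.71 ± 0.649 for set B (SD, n = 4 each). The highest ischemic kidney (4.29) was just under the lowest control (4.41). In the gene models, 12.8% of the 100-base windows of Sod2 also occur in AC166110.4 or Rps6ka2, and how the counting treated such reads is not given in the sources used here.

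Sod3 (chr5:52363791-52371418, plus strand), the secreted enzyme held at the cell surface and in the matrix between cells, was scarce. It was at 11.9, 18.2, 19.3 and 9.72 CPM for the controls, at 6.23, 6.64, 2.43 and 0.952 CPM in set A and at 3.78, 2.17, 3.41 and 0 CPM in set B. The highest ischemic kidney was below the lowest control. Set B kidney 4 had 0 counts, which allows up to 0.195 CPM. Sod3 was at -1.89 ± 0.80 on the log2 scale in set A, which did not pass (edgeR adjusted p = 0.114), and fell by 2.67 ± 0.80 in set B (adjusted p = 0.0275). Without set B kidney 4, the spread was smaller and Sod3 passed in both sets, with log2 fold changes of -1.90 in set A (edgeR adjusted p = 0.0167) and -2.26 in set B (adjusted p = 0.0133). The call in set B was lost without control kidney 2 (adjusted p = 0.0727), control kidney 3 (adjusted p = 0.0783) or set B kidney 2 (adjusted p = 0.0603). The call over both sets (edgeR adjusted p = 0.0135) was lost without control kidney 2 (adjusted p = 0.0516) or control kidney 3 (adjusted p = 0.0571). The size of the fall in set B depended on the method, with log2 fold changes of -3.27 with the replicate number as a block and -3.56 with limma-trend.

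Cat (chr2:103453849-103485160, minus strand), the peroxisomal enzyme that splits hydrogen peroxide into water and oxygen, was at 526, 541, 483 and 462 CPM in the controls. It was at 140.5, 266, 166 and 133.5 CPM in set A and at 167, 132, 162 and 109 CPM in set B. No ischemic kidney came near the controls, and set A kidney 2 was the highest of the 8. Cat was 2.9-fold lower in set A (log2 fold change -1.54 ± 0.19, edgeR adjusted p = 4.39e-06) and 3.58-fold lower in set B (-1.84 ± 0.19, adjusted p = 5.59e-07).

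The glutathione peroxidases measured here are all selenoproteins, with selenocysteine at the active site. Gpx1 (chr9:108338903-108340343, plus strand), the general enzyme of cytosol and mitochondria, was at 1027, 1079, 796 and 1085 CPM for the controls, at 330, 364, 256 and 247 CPM in set A and at 378, 242, 322 and 261 CPM in set B. The groups of ischemic kidneys covered nearly the same range, well below the controls. Gpx1 was 3.39-fold lower in set A (edgeR adjusted p = 9.87e-08) and 3.36-fold lower in set B (adjusted p = 1.14e-07).

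Gpx3 (chr11:54902453-54910377, plus strand), the secreted plasma enzyme, was one of the most abundant mRNAs of the kidney. It had rank 5 of all genes by counts in each of the 4 controls, and ranks between 10 and 41 in the ischemic kidneys. Its level was 7294, 8532, 6379 and 7073 CPM for the controls, 2704, 3556, 3058 and 3453 CPM in set A and 5099, 3623, 4499 and 2100 CPM in set B. Set A was tight, whereas set B spread over it on both sides, with kidney 4 lowest and kidney 1 highest of the 8. Gpx3 fell by 1.22 ± 0.19 on the log2 scale in set A (edgeR adjusted p = 6.74e-05) and by 0.95 ± 0.19 in set B (adjusted p = 0.000782). Without set B kidney 4, the fall in set B was 0.75 ± 0.12 (edgeR adjusted p = 0.000118), and the log2 fold change in set A was again -1.22. The ratio of Gpx3 to Gpx1 CPM was 7.39 ± 0.706 for the controls, 10.96 ± 2.52 for set A and 12.6 ± 3.11 for set B (SD, n = 4 each), and all 8 ischemic kidneys (8.05 to 14.98) were above the highest control (8.01), 1 of them only narrowly.

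Gpx4 (chr10:80047166-80056439, plus strand), the enzyme that reduces lipid peroxides within membranes and so restrains ferroptosis, changed least among those that fell. It was at 59.8, 93.8, 84.6 and 77.9 CPM for the controls, at 64.3, 48.1, 61.9 and 53.1 CPM in set A and at 44.0, 59.9, 48.4 and 51.1 CPM in set B. Control kidney 1 lay among the ischemic kidneys, so the groups overlapped. The log2 fold change was -0.50 ± 0.19 in set A (edgeR adjusted p = 0.063) and -0.66 ± 0.19 in set B (adjusted p = 0.0145). Over both sets Gpx4 fell by 0.58 ± 0.16 (edgeR adjusted p = 0.00913). The calls turn on single controls. Without control kidney 1, Gpx4 passed in set A (edgeR adjusted p = 0.0263), and without control kidney 2 it did not pass in set B (adjusted p = 0.0563) or over both sets (adjusted p = 0.0554). Of its 100-base windows, 25.2% also occur in Gpx4-ps2 or AC122253.3, so its counts are uncertain.

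The peroxiredoxins did not move together. Prdx1 (chr4:116685544-116700822, plus strand), a cytosolic enzyme that uses thioredoxin, was the mRNA of the 10 that was not lower after ischemia in either set. It was at 510, 568, 605 and 545 CPM for the controls, at 680, 959, 736 and 815 CPM in set A and at 612, 767.5, 625 and 286 CPM in set B. All 4 kidneys of set A and 3 of set B were above the highest control, and set B kidney 4 was below every other kidney. The log2 fold change was 0.49 ± 0.21 in set A (edgeR adjusted p = 0.104) and 0.02 ± 0.21 in set B (adjusted p = 0.973), neither past the threshold.

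The result for Prdx1 depends on set B kidney 4. Without it, Prdx1 was higher in set A by 0.49 ± 0.12 (edgeR adjusted p = 0.00499) and over both sets by 0.37 ± 0.11 (adjusted p = 0.0156), while in set B it was at 0.25 ± 0.13 and did not pass (adjusted p = 0.215). A fit of only set A and the controls also called it higher in set A (log2 fold change 0.52, edgeR adjusted p = 0.00441). The ratio of Prdx1 to Gpx1 CPM was 0.571 ± 0.127 for the controls, 2.71 ± 0.517 for set A and 1.96 ± 0.882 for set B (SD, n = 4 each). The lowest ischemic kidney, set B kidney 4 at 1.09, was above the highest control at 0.76.

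Prdx5 (chr19:6906697-6910106, minus strand), found in mitochondria, peroxisomes and cytosol, varied little among the controls and in set B, and more in set A. It was at 189.5, 196, 188 and 166.5 CPM for the controls, at 103, 134, 100.3 and 106 CPM in set A and at 110.1, 111, 113.5 and 109.9 CPM in set B. Set B varied by only 1.65 CPM (SD, n = 4), kidney 4 included. Prdx5 fell by 0.76 ± 0.13 on the log2 scale in set A (edgeR adjusted p = 0.000242) and by 0.76 ± 0.13 in set B (adjusted p = 0.000265). It shares 12.3% of its 100-base windows with Trmt112, which overlaps it on the opposite strand.

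Prdx3 (chr19:60864051-60874556, minus strand), the thioredoxin-dependent enzyme of the mitochondrial matrix, had between 0 and 202 counts. It was at 0, 2.30, 5.75 and 5.18 CPM for the controls, at 0.032, 1.17, 1.63 and 3.21 CPM in set A and at 2.71, 2.36, 0 and 0 CPM in set B. Kidneys at or near 0 occurred in every group, and the groups overlapped. The log2 fold changes of -1.17 ± 1.66 in set A (edgeR adjusted p = 0.745) and -1.40 ± 1.67 in set B (adjusted p = 0.663) have errors larger than themselves, so a change was not detectable given the spread between kidneys. With 1 kidney left out they ranged from -1.88 (without set A kidney 4) to -0.73 (without set A kidney 1) in set A and from -2.09 (without set B kidney 1) to -0.99 (without set B kidney 4) in set B, and none passed. No 100-base window of Prdx3 occurs in another gene model. The gene models used for counting are not given in the sources used here. The low counts of Prdx3 and its low place by level (last in the controls and set A) may therefore not stand for the level of its mRNA.

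**Figure D2:**
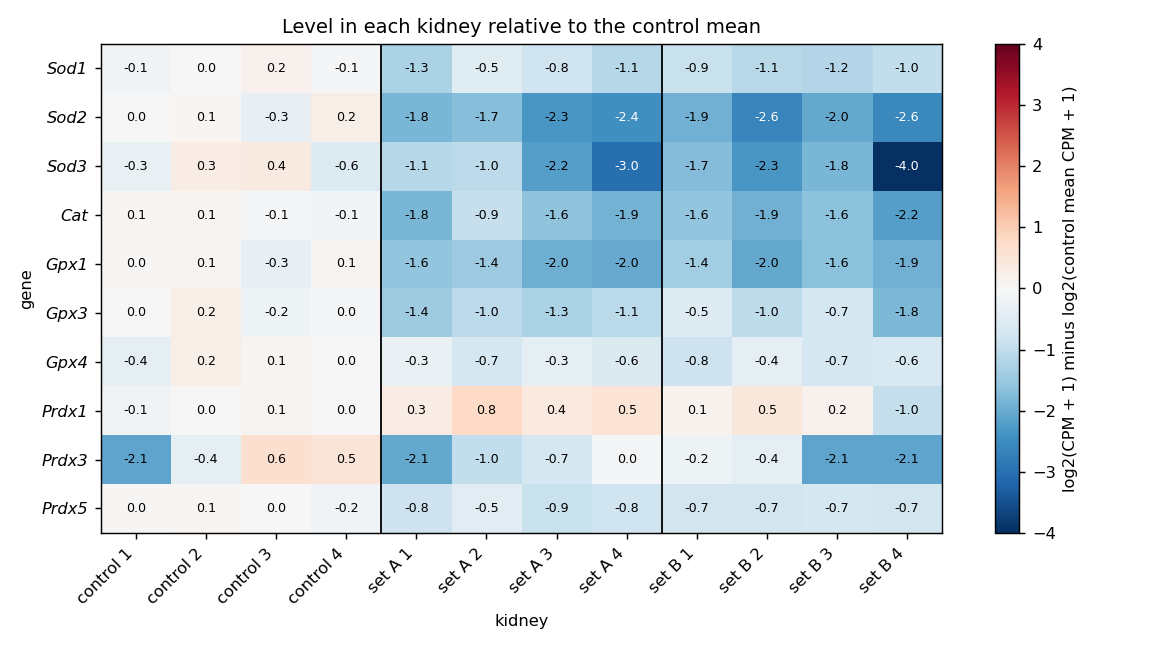
Level of each mRNA in each kidney relative to the mean of the 4 controls, as log2(CPM + 1) minus log2(control mean CPM + 1). Columns are kidneys, rows are genes, blue is lower and red is higher. Averaged over each set, Sod2, Sod3, Cat and Gpx1 are the deepest blue. Prdx3 is deeper in single kidneys, such as set A kidney 1 (-2.06) and set B kidney 3 (-2.11), and varies within every group. Prdx1 is above 0 in 7 of 8 ischemic kidneys.

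The order of the enzymes by level per length changed with ischemia. In RPKM, the CPM divided by the kilobases of annotated exon, the controls ran from Gpx3 (4037 ± 495) through Gpx1 (692 ± 94.6), Cat (193 ± 14.2), Prdx1 (183 ± 13.2), Sod2 (87.5 ± 13.9), Prdx5 (86.4 ± 5.99), Gpx4 (45.8 ± 8.35) and Sod1 (34.9 ± 3.36) to Sod3 (3.96 ± 1.26) and Prdx3 (2.24 ± 1.81; SD, n = 4 each). Neighbours whose ranges overlapped were Cat and Prdx1, Sod2 and Prdx5, Gpx4 and Sod1, and Sod3 and Prdx3. In both ischemic sets Gpx3 stayed first, Prdx1 (262 ± 39.9 RPKM in set A, 188 ± 67.0 in set B) overlapped Gpx1 (208 ± 39.5 and 209 ± 42.9) for the second place, and Sod2 dropped below Gpx4, to 21.04 ± 5.25 and 18.1 ± 4.43 RPKM. The RPKM values use the union of annotated exons, which is 10008 bases for Sod2 and lowers its level if long ends are not used.

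None of the 10 passed the test between the ischemic sets. In set B against set A, edgeR called 0 of the 10, where 0.00857% of all genes tested (1 gene) were called, and DESeq2 and limma-trend called 0 of the 10 as well. The ranges of the sets overlapped in all 10, where 1.25% of all genes were lower without overlap and 1.4% higher. Without set B kidney 4, the ranges of Gpx3 did not overlap. The other 3 kidneys of set B were at 3623 to 5099 CPM and set A at 2704 to 3556 CPM. The shares above are for 4 kidneys against 4. The share of all genes that separate with 3 against 4 was not counted, so this separation has no background to be set against. At an unadjusted p under 0.05, 1 of the 10 was lower in set B, where 2.62% of all genes were, namely Prdx1 at -0.47 ± 0.21 on the log2 scale (95% interval -0.90 to -0.04, edgeR adjusted p = 0.962). Without set B kidney 4 that difference was -0.24 ± 0.13 (edgeR adjusted p = 0.897). The intervals still allow differences of some size. They ran from -0.32 to 0.34 for Gpx1, from -0.27 to 0.28 for Prdx5, from -0.52 to 0.21 for Sod1, from -0.59 to 0.17 for Sod2, from -0.69 to 0.09 for Cat, from -0.12 to 0.66 for Gpx3 and from -0.55 to 0.24 for Gpx4. For Sod3 (-2.46 to 0.91) and Prdx3 (-3.73 to 3.27) the intervals are too wide to bound a difference usefully. Without set B kidney 4, the difference of set B from set A for Gpx3 was 0.47 ± 0.12, which did not pass (edgeR adjusted p = 0.33).

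**Figure D3:**
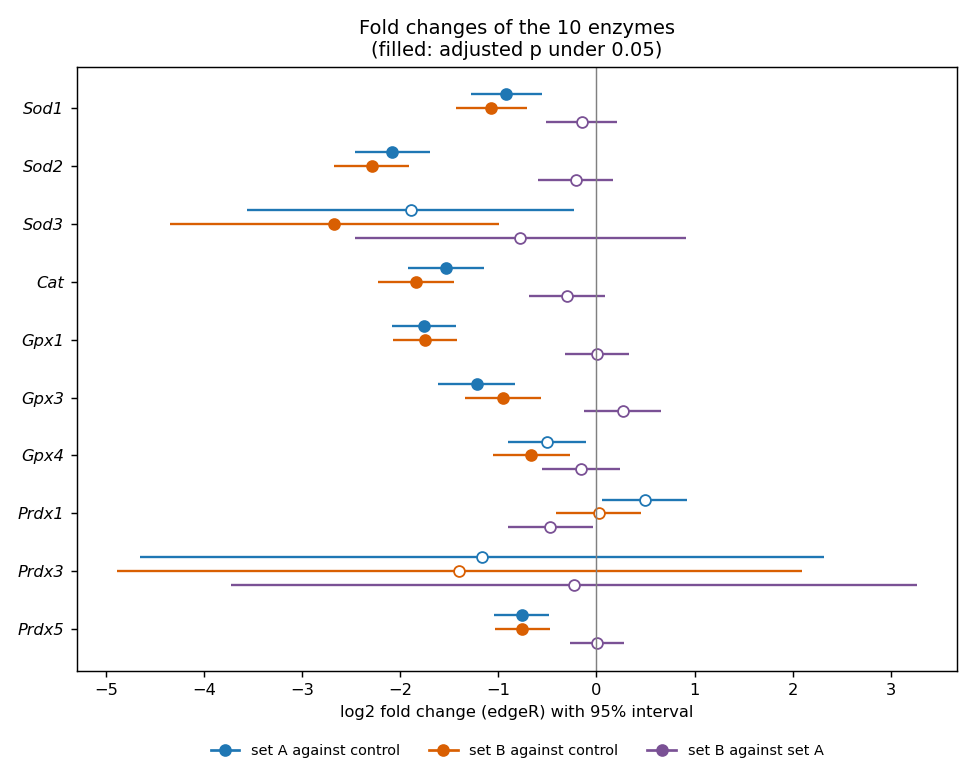
Log2 fold change of each mRNA with its 95% interval from edgeR, for set A against control (blue), set B against control (orange) and set B against set A (purple). Filled points have an adjusted p under 0.05. Sod2 lies at -2.08 and -2.29 against control, Prdx1 at 0.49 and 0.02, and every point of set B against set A is open.

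Markers of other kidney cells moved by unequal amounts beside the enzymes. The summed proximal tubule markers went from 5990 to 6870 CPM (controls) to 630 to 1190 CPM (set A) and 382 to 1220 CPM (set B), and all 8 markers fell. The thick ascending limb markers went from 1600 to 1680 CPM to 287 to 387 and 272 to 798 CPM, and 1 of 4 passed. Distal convoluted tubule markers went from 1250 to 1810 CPM to 852 to 1340 and 755 to 1270 CPM, and 2 of 3 fell. Collecting duct markers, at 121 to 169, 115 to 139 and 85.0 to 253 CPM, had 0 of 4 past the threshold in edgeR, adjusted or unadjusted. Podocyte markers were at 157 to 197, 197 to 371 and 230 to 356 CPM, and 3 of 5 rose. The counts of markers in this paragraph are over both sets against control, where 12.2% of all genes tested were higher and 14.2% lower. Markers of tubular injury, among them Havcr1 and Lcn2, went from 20.8 to 33.2 CPM to 747 to 1050 and 774 to 1310 CPM, and all 7 rose. The summed fibroblast and smooth muscle markers were higher (589 to 810 CPM for the controls, 1350 to 3670 CPM for set A, 1740 to 3050 CPM for set B), and 3 of 5 tested rose. The summed macrophage and monocyte markers were lower (43.9 to 64.3, 10.9 to 24.1 and 9.36 to 26.6 CPM), but only 1 of 5 tested fell. Erythroid markers were at 58.2 to 119 CPM for the controls, 25.2 to 48.8 for set A and 14.5 to 31.5 for set B, and both of those tested fell. Endothelial markers (64.9 to 71.0, 48.7 to 77.6 and 43.8 to 66.1 CPM) and markers of intercalated cells (164 to 309, 137 to 293 and 160 to 440 CPM) each had 1 of 5 lower. Lymphocyte markers were at 0.672 to 4.65 CPM for the controls and 0 in all ischemic kidneys, and the 1 tested fell. Neutrophil markers were at 0 in all controls and at most 0.446 CPM elsewhere, with S100a8, Retnlg and Ngp at or under 3 counts in every kidney. Their part in the enzymes' change was not tested.

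**Figure D4:**
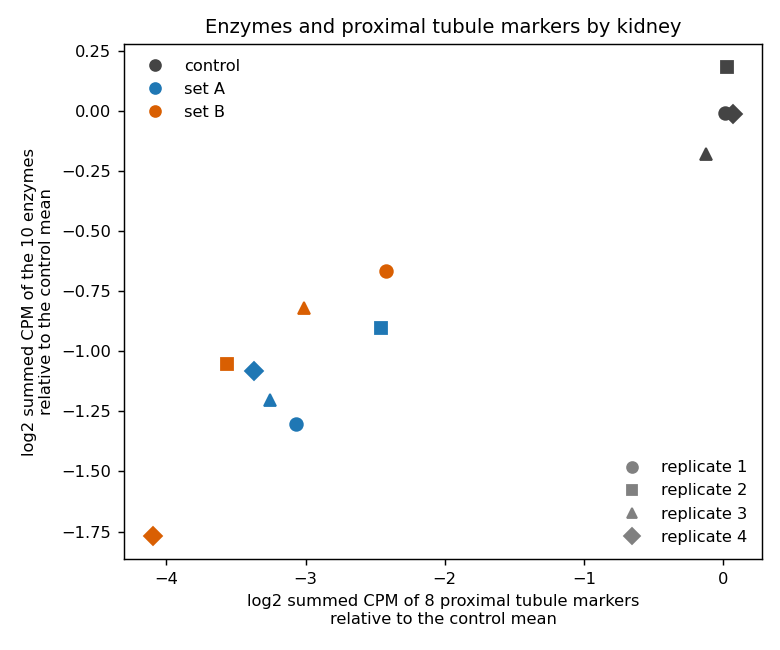
Summed CPM of the 10 enzymes against summed CPM of 8 proximal tubule markers in each kidney, both as log2 of the ratio to the control mean. Colours are groups and symbols are replicate numbers. The ischemic kidneys lie at -4.10 to -2.42 on the marker axis and at -1.77 to -0.67 on the enzyme axis, with set B kidney 4 lowest on both.

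Set B kidney 4, lowest in summed enzymes (3134 CPM), Gpx3 and Prdx1, was also lowest in proximal tubule markers (382 CPM), and highest in markers of the thick ascending limb among the ischemic kidneys (798 CPM), of collecting duct (253 CPM) and of intercalated cells (440 CPM). The part of these differences in its low Prdx1 was not tested.

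Of 8 other members of the same families, 6 could be tested and edgeR called none in either set alone, where 22.3% and 22.8% of all genes changed, and 1 over both sets, where 26.4% did. At an unadjusted p under 0.05, 1 of the 6 was lower in set A and none in set B. At that threshold, 3678 and 3812 of the 11664 genes tested changed in either direction. Prdx6, a peroxiredoxin that uses glutathione, had the highest CPM of them, with 78.2 ± 6.69 CPM for the controls, 94.9 ± 23.9 for set A and 96.2 ± 19.1 for set B (SD, n = 4 each). Prdx4, the enzyme of the endoplasmic reticulum, was lower over both sets (log2 fold change -1.37 ± 0.51, edgeR adjusted p = 0.0439), from 13.7 ± 8.83 CPM to 4.63 ± 1.67 and 6.25 ± 3.55. Prdx2 was at 10.4 ± 2.14, 6.53 ± 3.65 and 7.15 ± 0.77 CPM. Gpx2 had at most 8 counts in a kidney and Gpx5 had 0 in all of them.

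The systems that recharge these enzymes were followed over lists of genes, with both sets pooled against control. Each list is to be read beside the 12.2% of all genes tested that were higher and the 14.2% that were lower, and several have shares near these. In the thioredoxin and glutaredoxin system, 2 of 12 tested rose and 1 fell. Those that rose were Txnrd1, the cytosolic thioredoxin reductase, from 38.8 ± 10.6 CPM in the controls to 133 ± 31.6 for set A and 102 ± 14.4 for set B, and Srxn1, which repairs overoxidised peroxiredoxins, from 2.71 ± 2.05 to 31.7 ± 7.64 and 20.1 ± 9.14 CPM (SD, n = 4 each). Their log2 fold changes over both sets were 1.57 ± 0.18 (edgeR adjusted p = 2.5e-06) and 3.20 (adjusted p = 0.000583), and in both genes every ischemic kidney was above every control. Glrx5, a mitochondrial glutaredoxin, fell by 0.98 (edgeR adjusted p = 0.0142).

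In glutathione supply, 5 of 12 fell and 1 rose. Ggt1, the brush border enzyme that breaks down glutathione outside the cell, went from 1067 ± 55.3 CPM to 239 ± 31.2 for set A and 208 ± 55.3 for set B. Slc25a39, a carrier of glutathione into mitochondria, fell by 1.28 on the log2 scale, and Gss, glutathione synthetase, by 1.35 (edgeR adjusted p = 1.43e-07 and 1.49e-05). The gene that rose was Slc7a11, the cystine importer, from 0.442 ± 0.51 CPM in the controls to 16.8 ± 1.25 for set A and 15.8 ± 9.91 for set B.

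In NADPH supply, 4 of 9 rose and 3 fell, in each set and over both. The 3 rises of smallest adjusted p were enzymes of the pentose phosphate pathway in the cytosol, Pgd (log2 fold change 1.93), Taldo1 (1.20) and G6pdx (1.70), with edgeR adjusted p between 2.37e-07 and 1.6e-05. The 3 that fell were Idh2 and Nnt of the mitochondrion and the cytosolic malic enzyme Me1, with log2 fold changes of -1.61, -1.84 and -2.20. Nnt went from 130 ± 15.8 CPM to 44.7 ± 17.5 and 30.5 ± 5.57. C57BL/6J mice are known to carry a deletion within Nnt, which the controls share.

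Selenium delivery and selenocysteine synthesis, on which the glutathione peroxidases depend, had 4 of 11 lower and 1 higher. Sepp1, the selenium carrier of plasma, was at 79.1 ± 11.5, 18.3 ± 3.69 and 31.8 ± 4.79 CPM. Lrp2, the receptor that takes it up in the proximal tubule, was at 756 ± 42.2, 115 ± 43.3 and 108 ± 59.8 CPM, and Sephs2, which makes the selenium donor, at 177 ± 30.5, 45.2 ± 9.06 and 47.3 ± 12.9 CPM. Lrp8, the other receptor of the carrier, rose from 3.58 ± 1.62 to 47.4 ± 16.8 and 28.4 ± 11.7 CPM (SD, n = 4 each). Among other selenoproteins, 2 of 9 fell, Msrb1 by 1.12 and 2810407C02Rik (Selenot) by 0.83 on the log2 scale.

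Of enzymes that make superoxide or hydrogen peroxide, 6 of 17 fell and 3 rose. Among those that fell were Cyba, a subunit of NADPH oxidases, from 194 ± 25.4 to 64.8 ± 17.8 and 49.8 ± 24.1 CPM, and Nox4, the NADPH oxidase abundant in kidney, from 92.0 ± 9.73 to 21.01 ± 8.42 and 35.7 ± 17.4 CPM. Those that rose were Smox, which oxidises spermine, Xdh, xanthine dehydrogenase, and Maoa, by log2 fold changes of 2.91, 1.47 and 1.52. Peroxisome biogenesis had 5 of 14 lower and none higher. The peroxisomal membrane transporter Abcd3, the import receptor Pex7 and the import receptor Pex5 fell by 1.11, 1.27 and 0.43 on the log2 scale.

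In copper and manganese handling, which supplies the metals of the dismutases, 2 of 8 fell and 1 rose. The copper importer Slc31a1 went from 155 ± 24.6 CPM to 51.4 ± 17.9 and 60.2 ± 8.39, and the metal carrier Slc39a8 from 12.5 ± 2.88 to 1.35 ± 0.88 and 0.864 ± 1.09, while Slc39a14 rose by 0.54 (edgeR adjusted p = 0.00518). In lipid peroxidation and ferroptosis 1 of 9 rose, Acsl4, which loads polyunsaturated fats into membranes, from 97.6 ± 3.66 to 344 ± 60.3 and 369 ± 52.0 CPM. Of transcriptional regulators, 4 of 9 rose, among them Nfkb1, Rela and Hif1a (log2 fold changes 1.59, 1.16 and 0.55), and 2 fell, Ppargc1a, a driver of mitochondrial genes, by 1.01 and Foxo3 by 0.42.

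**Figure D5:**
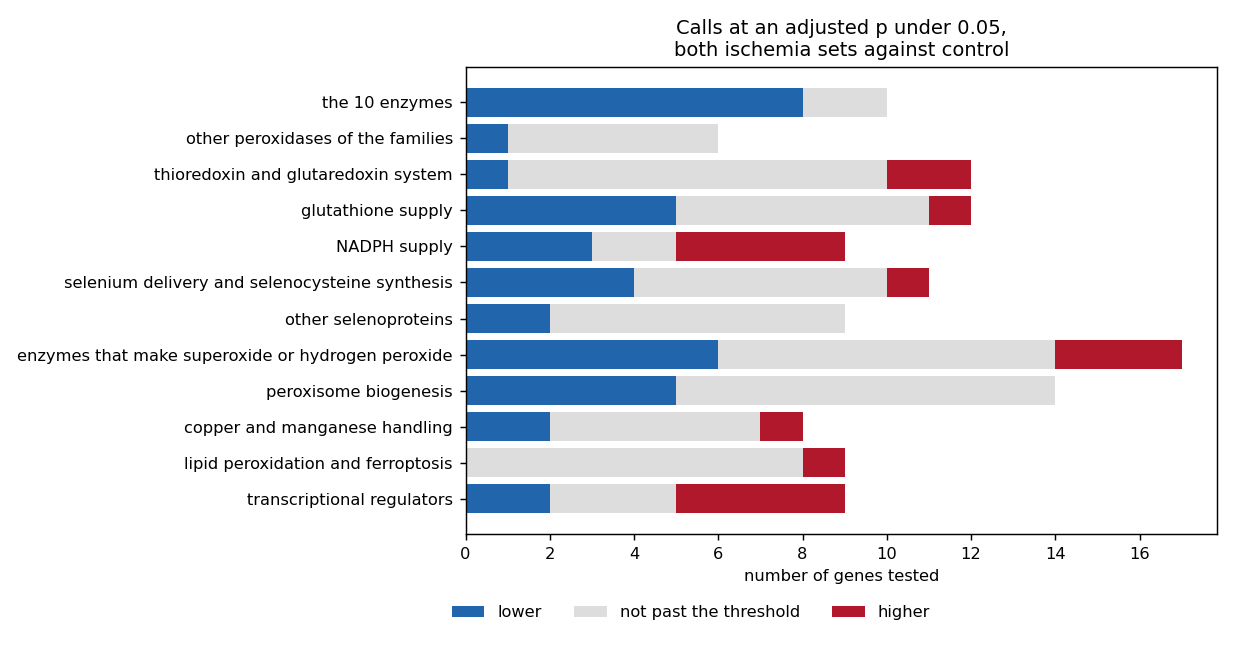
Number of genes lower (blue), higher (red) or not past the threshold (grey) in edgeR at an adjusted p under 0.05, both ischemic sets against control, for the 10 enzymes and each list of related genes. Of the 10 enzymes 8 are lower and none higher, and NADPH supply has 3 lower and 4 higher of 9.

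The genes closest in pattern to each enzyme were found among 5143 genes whose mean log2 CPM was 4 or more, by the root mean square difference of log2 CPM centred on the control mean over the 12 kidneys, which share their libraries and the split into groups. The closest were Dlst and Abhd2 to Prdx5 (0.114 each), Lrp4 (0.13) and Shmt2 (0.168) to Gpx1, Emc2 (0.133) and Bsdc1 (0.157) to Gpx4, and Ndufv1 (0.154) and Emc7 (0.156) to Sod1. Slc6a6 (0.166) and Bnc2 (0.184) were closest to Gpx3, Tmbim6 (0.186) and Lap3 (0.197) to Cat, Mccc1 (0.191) and Ggt1 (0.212) to Sod2, and Zfp259 (0.202) and Skap2 (0.205) to Prdx1. For Sod3 and Prdx3, with few counts, the closest genes were farther off, with 0.929 for Slc22a8 and 0.956 for Cldn10 beside Sod3, and 2.002 for Enox2 and 2.06 for Pctp beside Prdx3.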

How the data were processed

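Single-read stranded mRNA libraries of 12 kidneys were mapped by the authors to mm10 with STAR, and the reads per gene were counted with HTSeq. The deposited values are raw counts of 23420 genes, without normalization. Versions of these tools, the gene annotation, the strand setting and the treatment of duplicates and shared reads are not given in the sources used here. Reads carry no molecular identifiers.

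The counts were filtered with edgeR 4.0.16 in R 4.3.3 (default filter, minimum count 10, minimum total 15), scaled by TMM, and fitted in 1 negative binomial model of the 3 groups, 4 kidneys in each. Two-sided quasi-likelihood F-tests were adjusted by Benjamini-Hochberg over 11664 genes, with a threshold of 0.05. CPM and RPKM were computed from the total counts and from the exon union of GENCODE M21 (GRCm38). P-values set a difference between groups against the spread between these kidneys. That spread was estimated from the 3 groups together and drew on all genes tested. No pair of replicates agreed within sampling noise (chi-square per degree of freedom at least 50.6). The fitting procedure was tested on simulated counts.

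The 10 enzymes and the lists of related genes were chosen with earlier results of these data known. Named were the 10 enzymes, up to 3 rises and 3 falls of smallest adjusted p in each list, the 2 genes closest in pattern to each enzyme, and Nnt, except 1 gene that is not reported here. Other family members were named after their values were seen. Promoters came from RefSeq. Alternatives were DESeq2 1.42.0, limma-trend (limma 3.58.1), RLE or library-size scaling, other filters, fits without the third group, a block for the replicate number, and leaving out each kidney. Figures were drawn with matplotlib 3.10.9.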

Additional observations from a re-analysis of the deposited data

Results flagged for a closer look

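Among 33 groups of 4 kidneys (each enzyme and their sum in each group), 1 had a kidney far from the rest. Prdx5 was at 134 CPM in set A kidney 2 and at 100.3 to 106 CPM in the other 3 kidneys of set A, a gap of 0.832 of the group's range, just over Dixon's 95% critical value for 4 samples. Chance gives about 1 such group in 20. The kidney was still below every control, and it had the highest Sod1, Sod2, Sod3, Cat, Gpx1, Gpx3 and Prdx1 of set A. Its Gpx4 (48.1 CPM) was the lowest of set A, and its Prdx3 (1.17 CPM) lay within the range of the others. Its proximal tubule markers summed to 1188 CPM, against 630 to 778 CPM in the other 3, and their part in this was not tested. The low Prdx1 of set B kidney 4 (286 CPM) did not pass this criterion.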

How the results depend on the processing

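The falls of Sod1, Sod2, Cat, Gpx1, Gpx3 and Prdx5 against control kept their direction and their adjusted p under 0.05 in every alternative run, in each set and over both. Of 310 values for single enzymes under alternatives other than leaving out a kidney, 304 kept direction and side of the threshold, 2 came to pass it and 4 changed sign without passing it; of 480 with 1 kidney left out, 447 kept both, 22 changed sign, 4 came to pass and 7 no longer passed. The causes were not tested.

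With only set A and control in the fit, 1 enzyme rather than 0 was called higher (Prdx1), and Sod3 passed (-1.86). Set B against control gave Prdx1 at -0.070 with limma-trend, and set B against set A gave Prdx5 at -0.0021 with only those groups in the fit. For set B against set A, the genes called among all tested were 1 in the model described, 6 without a filter on low counts, 29 with DESeq2, and 0 with limma-trend or only those groups in the fit. For both sets against control, the fit of only the groups compared is the same fit. No scaling moved the median of all genes by 0.1 on the log2 scale.

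With 1 kidney left out, the enzymes called higher ranged from 0 to 1 in set A and over both sets, the enzymes called lower from 6 to 7 in set A and from 6 to 8 in set B and over both sets, and all genes called in set B against set A from 0 to 7. Log2 fold changes that changed sign ranged from -0.19 to 0.25 for Prdx1 in set B against control and, in set B against set A, from -0.27 to 0.0087 for Sod1, from -0.13 to 0.11 for Gpx1, from -0.91 to 0.47 for Prdx3 and from -0.058 to 0.10 for Prdx5.

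Replicate numbers are shared across groups but nothing ties same-numbered kidneys together, and deviations from group means of the 12 same-number pairs correlated between -0.055 and 0.045. With the number as a replicate block, no call of an enzyme changed, 2491 genes were called in set A, 2531 in set B, 1 in set B against set A and 2974 over both, and the uncalled Prdx1 in set B was at -0.030 and Prdx3 in set B at -0.28 (from -1.40) and in set B against set A at 0.91. At the depth of these libraries, 3 counts are 0.067 to 0.195 CPM.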
